A study of Mus musculus with 10 samples.

Results

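The clustered protocadherin genes were taken as every protein-coding gene on mouse chromosome 18 whose symbol starts with Pcdha, Pcdhb or Pcdhg in a RefSeq gene table of GRCm38.p6. The rule gave 57 of 21883 protein-coding genes: 14 Pcdha, 22 Pcdhb and 21 Pcdhg genes. They were chosen by name and place and by no measured value, though with earlier results of these data known. The peaks of 8 lists were mapped along the clusters and 50 kb on either side, from position 36880285 to 37891873 (1011.6 kb).

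Clustered protocadherins are cell adhesion proteins of neurons that bind copies of themselves on other cells. Each Pcdha and Pcdhg gene has its own promoter and its own large variable exon, which encodes the outside of the protein and is spliced to constant exons that the whole cluster shares, whereas each Pcdhb gene is a single large exon. A neuron uses a few of the alternate genes, picked largely at random, so that the combination labels the cell and lets its branches recognise each other. The C-type genes at the end of the Pcdha and Pcdhg clusters are chosen differently and are used by many neurons of a type. Promoter choice is known to depend on CTCF and cohesin, which loop distant enhancers to the promoters, and on DNA methylation.

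The cells were embryonic neural stem/progenitor cells from the mouse forebrain at E13.5, grown at passage 2-3 with EGF and FGF (20 ng/ml each). Control cultures received water and the others 10 mM crotonate for 24 h. Cells can turn this fatty acid into crotonyl-CoA, the donor for histone crotonylation. No genetic change is named, and for strain, sex and number of embryos the sources used here give nothing. Native chromatin immunoprecipitation and sequencing, without crosslinking, was done for H3K4me3 (a mark of promoters), H3K9cr (crotonylated lysine 9) and H3K27ac (both found at active chromatin) and H3K27me3 (the mark of Polycomb silencing). There was 1 library per mark and treatment, so the differences below have no replicate check and no test, and differences between cultures cannot be told apart from differences due to crotonate. The antibody vendor is labelled differently in the treatments for H3K4me3 (Abcam in control, PTM Biolab in crotonate) and H3K27me3 (Active Motif and PTM Biolab), under the same catalogue numbers. For H3K9cr and H3K27ac the vendor is named in control only.

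The sources used here give no read depth. The lowest local background implied by any peak was 2.91 and 2.87 fragments for H3K4me3 in control and crotonate, and 3.74 and 3.2 for H3K9cr. Strong peaks were lower after crotonate across the genome, since the median pileup at gene starts marked in both treatments was 620 and 550 for H3K4me3 and 491 and 264 for H3K9cr. Peaks of all 8 lists were counted as the authors called them, and the lowest pileup in a list was 9 to 11. Of 10 markers of neural stem and progenitor cells, 7 had a start that could be placed, and all 7 carried H3K4me3 and H3K9cr in both treatments. Of the neuron markers 5 of 7 carried H3K4me3 in both treatments, of the oligodendrocyte lineage 2 of 2, of the astrocyte 1 of 3, of endothelium and pericyte 1 of 2, and of microglia 0 of 3. Of all protein-coding genes with a known strand, 57.9% carried H3K4me3 in control and 59.0% in crotonate, and 59.2% and 60.1% carried H3K9cr. With so few genes per list, most of these counts cannot be told apart from those shares. In the same lists H3K27ac was lost at Pax6, Tubb3, Syp and Gfap and gained at Neurod6, H3K27me3 was lost at Dcx and H3K9cr at Cldn5, with pileups of 9 to 23. Each gene was read at its annotated start only, so any other promoter of a gene was not covered. In control the Pax6 window had an H3K4me3 pileup of 20 and an H3K27me3 pileup of 289. Of all genes marked in control, 3.12% lost H3K27ac, 19.1% H3K27me3 and 0.927% H3K9cr, and 3.55% of unmarked genes gained H3K27ac. H3K4me3 marks promoters that are ready as well as ones in use, so the marker counts do not give shares of cells.

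A gene was called marked when a peak touched the 1 kb on either side of its annotated start. For these genes the start is the lower coordinate of the gene. It was assumed to be the first base of the variable or single exon, as exon positions were not available. The neighbouring starts were at least 4154 bp apart, so each window belonged to a single gene. Background is given as the share among 17491 protein-coding genes with a known strand, none of them on chromosome 18. Pileup is the number of stacked fragments at a peak's summit, and fold enrichment is that height over the local background. Both are the authors' own values for the peak, and the scaling between lists is unknown, so they are set side by side without a change being read from them. "Gained" and "lost" mean that a gene was marked in the crotonate list only or in the control list only, and a peak just under the calling limit of the other list counts as such.

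More clustered protocadherin starts carried H3K4me3 and H3K9cr in the crotonate lists, and none lost either mark. H3K4me3 was called at 33 of 57 genes in control (57.9%, exact Clopper-Pearson 95% interval 44.1 to 70.9) and at 47 in crotonate (82.5%, 70.1 to 91.3). In the background 57.9% of genes carried it in control and 59.0% in crotonate. Of the 24 genes unmarked in control, 14 gained H3K4me3 (58.3%, 36.6 to 77.9), against 3.16% of unmarked background genes, and 0 of 33 lost it (upper bound 10.6%), against 0.346%. H3K9cr was called at 37 genes in control (64.9%, 51.1 to 77.1) and 50 in crotonate (87.7%, 76.3 to 94.9), against 59.2% and 60.1% of background genes. It was gained at 13 of 20 unmarked genes (65.0%, 40.8 to 84.6), against 3.59%, and lost at 0 of 37 (upper bound 9.49%), against 0.927%. The intervals cover counting error only and treat neighbouring genes as independent, which they are not.

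**Figure D1:**
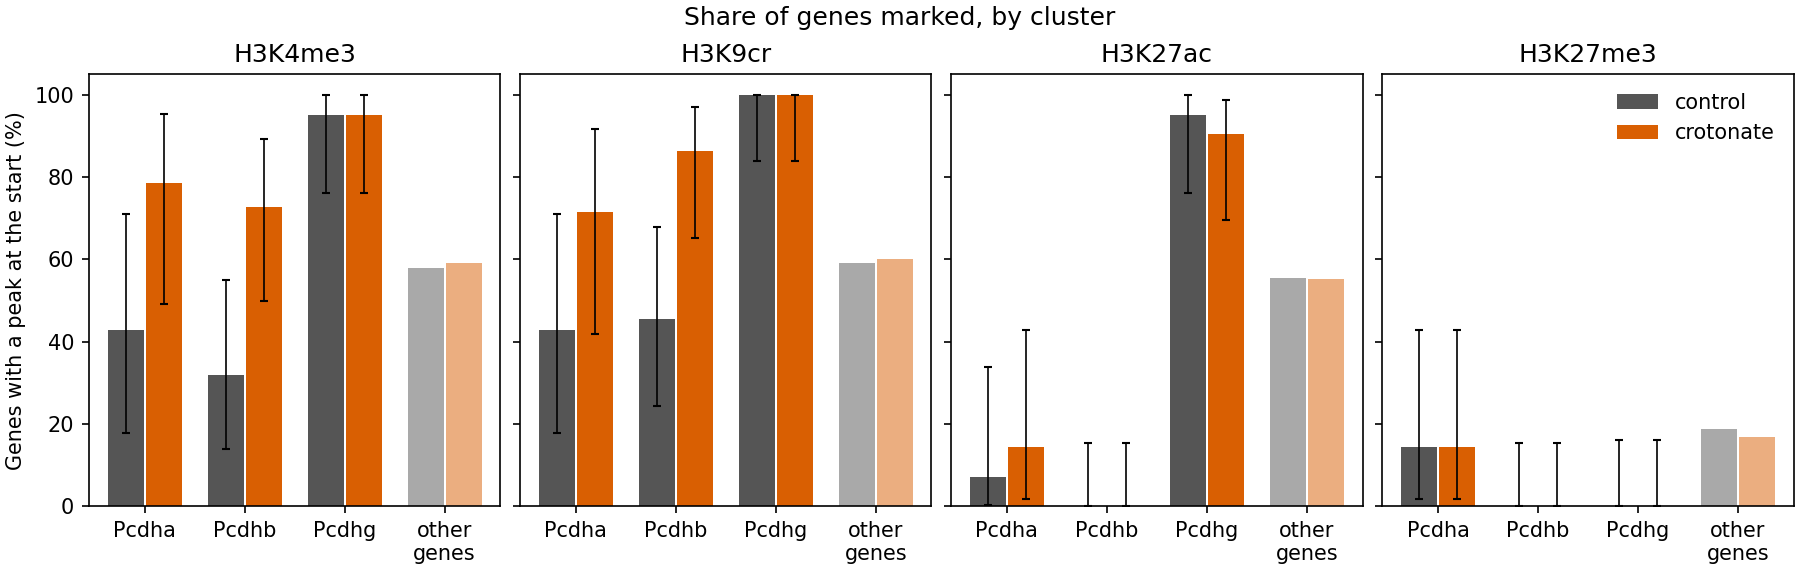
Share of genes with a peak within 1 kb of the start (%, vertical axis) for each mark, by cluster and treatment, with exact 95% intervals for the protocadherin clusters; "other genes" are the 17491 background genes. Pcdha and Pcdhb bars are higher in crotonate for H3K4me3 and H3K9cr, Pcdhg bars are near the top in both treatments, and Pcdhb bars for H3K27ac are at 0.

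The background genes are mostly marked strongly or silent, so the protocadherins were also set against genes in the same state in control. Of the 7 members with H3K9cr but no H3K4me3 in control, 6 gained H3K4me3 (85.7%, 42.1 to 99.6), against 29.4% of 310 background genes in that state. Of the 17 members with neither, 8 gained H3K4me3 (47.1%, 23.0 to 72.2), against 2.01% of 7052 background genes. Among those 17, 10 gained H3K9cr (58.8%, 32.9 to 81.6), against 2.81%. These comparisons were added after the values were seen. Their intervals again treat neighbouring genes as independent, so a background share outside them is no test of a difference. Strength below the calling limit is not in the lists, so the members could not be set against genes of equal control signal.

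The 3 clusters differed in where the added peaks lay. H3K4me3 was called at 6 of 14 Pcdha genes in control and 11 in crotonate, at 7 and 16 of 22 Pcdhb genes, and at 20 of 21 Pcdhg genes in both. H3K9cr was called at 6 and 10 Pcdha genes, 10 and 19 Pcdhb genes, and all 21 Pcdhg genes in both treatments. All added H3K4me3 and H3K9cr member starts were therefore in Pcdha and Pcdhb, where 23 members were without H3K4me3 in control, against 1 in Pcdhg (Pcdhgc5). Genes without either mark numbered 17 in control, and the 5 that remained in crotonate were Pcdha1, Pcdha6, Pcdhb3, Pcdhb9 and Pcdhb13.

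**Figure D2:**
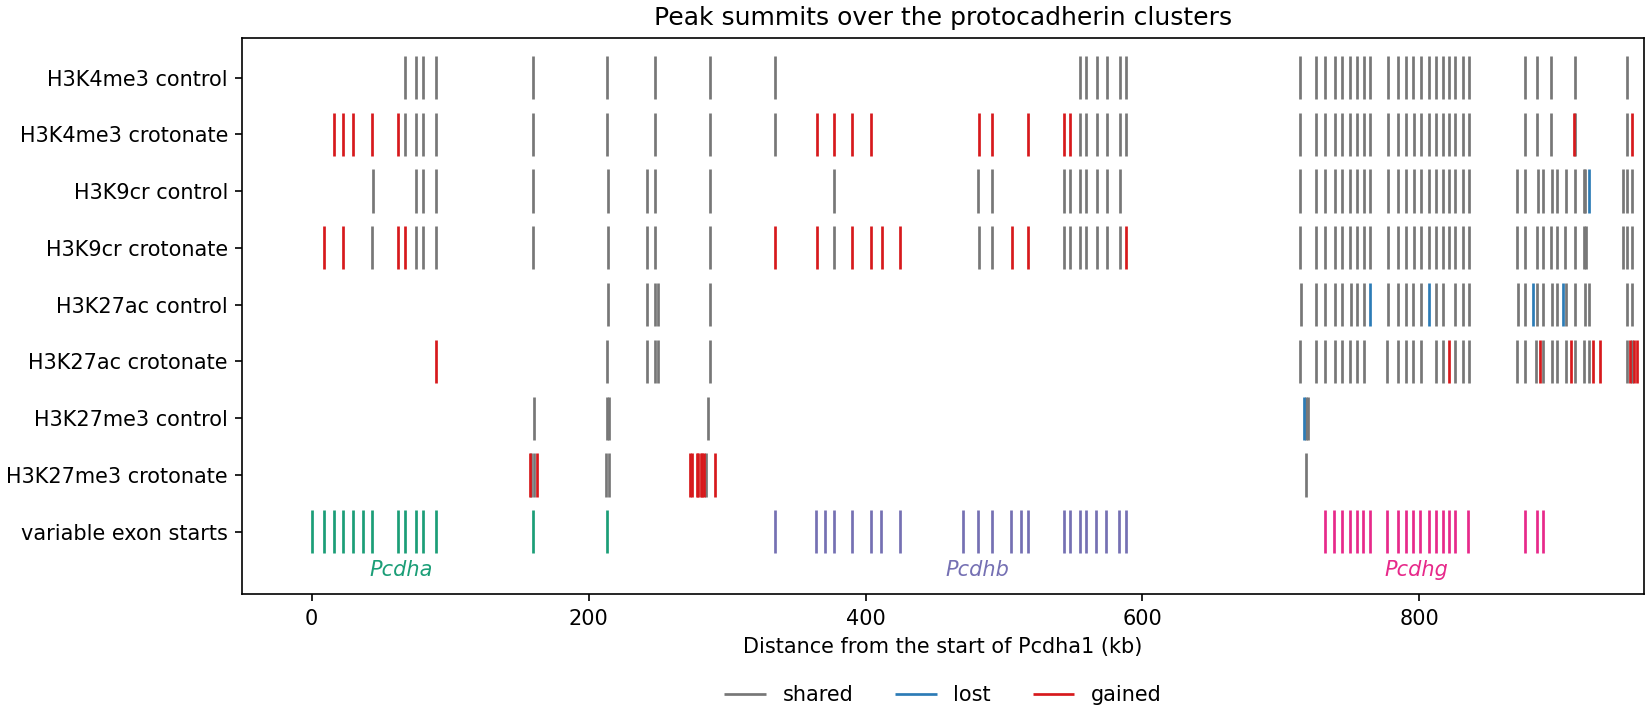
Summits of all peaks of the 8 lists over the region, by distance from the start of Pcdha1 (kb, horizontal axis), with the starts of the 57 genes in the bottom row. Gray ticks overlap a peak of the same mark in the other treatment, blue ticks are in control only and red ticks in crotonate only; the red H3K4me3 and H3K9cr ticks lie mainly over Pcdha and Pcdhb starts.

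In the Pcdha cluster the genes with H3K4me3 in control were those nearest the constant exons. Pcdha1, the alternate gene farthest from them (start 36930285), carried none of the 4 marks in either treatment. Pcdha9 had an H3K4me3 pileup of 17 (3.09-fold) in control and 31 (7.82-fold) in crotonate. Pcdha10 had 18 (4.85-fold) and 56 (14.7-fold), and Pcdha11 had 23 (6.13-fold) and 42 (11.1-fold). Pcdha12, the last alternate gene, was the highest of the 12 alternate Pcdha genes, with 65 (16.9-fold) and 145 (37.7-fold). All 4 were higher in the crotonate list. Across the 14 Pcdha genes, order along the cluster and H3K4me3 fold enrichment (unmarked as 0) had a Spearman correlation of 0.90 in control and 0.92 in crotonate, a description of genes that share libraries and neighbours.

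The 5 Pcdha genes that gained H3K4me3 lay upstream of these. Pcdha7 had the highest gained peak of them, with a pileup of 24 (6.45-fold) in crotonate. Pcdha4 and Pcdha8 each reached 22 (5.94-fold), Pcdha3 18 (4.9-fold) and Pcdha5 14 (3.87-fold). Each gained H3K4me3 peak was lower than the Pcdha12 peak already was in control. H3K9cr was gained at Pcdha9 (pileup 22, 4.62-fold), Pcdha4 (16, 4.04-fold), Pcdha2 (13, 3.33-fold) and Pcdha8 (13, 3.33-fold). Pcdha7 carried H3K9cr in both lists (14 and 17), so it added H3K4me3 to an H3K9cr peak already called. Pcdha12 had an H3K9cr pileup of 67 (14.3-fold) in control and 85 (20.5-fold) in crotonate.

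**Figure D3:**
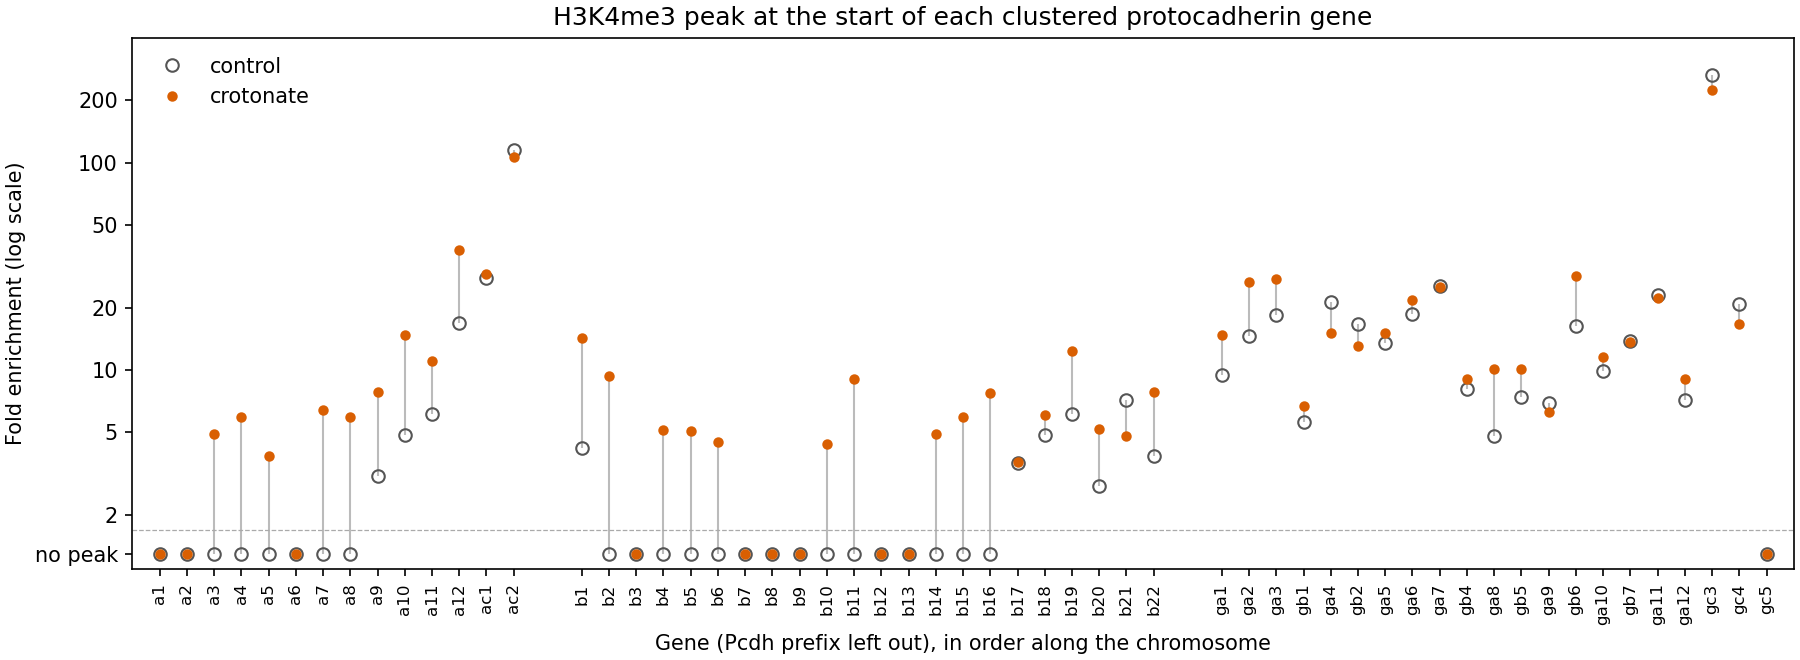
Fold enrichment of the H3K4me3 peak at each gene's start (log scale, vertical axis) in control (open circles) and crotonate (filled circles), with genes in chromosome order and genes without a peak on the bottom line. The added peaks are at Pcdha and Pcdhb genes and lie below 10-fold, whereas Pcdhac2 and Pcdhgc3 are above 100-fold in both lists.

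The Pcdhb cluster held the most added peaks. In control its H3K4me3 was confined in the list to Pcdhb1, the first gene, and to the last 6, Pcdhb17 to Pcdhb22. The Pcdhb1 pileup was 19 (4.21-fold) in control and 54 (14.2-fold) in crotonate. Pcdhb19, which had the highest Pcdhb pileup in control, had 28 (6.11-fold) and 47 (12.4-fold). By fold enrichment the highest in control was Pcdhb21 (7.15-fold). Pcdhb17 had 13 in both lists, and the other 4, Pcdhb18, Pcdhb20, Pcdhb21 and Pcdhb22, ranged from 14 to 27 in control and from 21 to 36 in crotonate. The pileup was thus higher in crotonate at 6 of the 7, and not at Pcdhb17. At Pcdhb21 the 2 values went opposite ways, with a pileup of 27 and 36 and a fold enrichment of 7.15 and 4.81. The lowest fold enrichments of any member were 2.75 at Pcdhb20 in control and 3.61 at Pcdhb17 in crotonate.

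H3K4me3 was gained at 9 of 15 unmarked Pcdhb genes (60.0%, 32.3 to 83.7), which lie in the middle of the cluster. Pcdhb2 had the highest gained pileup, 42 (9.33-fold), followed by Pcdhb11 at 34 (9.04-fold) and Pcdhb16 at 29 (7.74-fold). Pcdhb5 had 25 (5.08-fold), Pcdhb6 22 (4.49-fold) and Pcdhb15 22 (5.94-fold). Pcdhb4 had 19 (5.16-fold), Pcdhb14 19 (4.89-fold) and Pcdhb10 17 (4.39-fold). The marked genes then ran through the cluster rather than lying at its ends, and the Spearman correlation of order and fold enrichment over the 22 genes was 0.57 in control and 0.15 in crotonate. Covered length over the cluster was 2644 bp in control and 7428 bp in crotonate for H3K4me3.

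H3K9cr was gained at 9 of 12 unmarked Pcdhb genes (75.0%, 42.8 to 94.5). Pcdhb2 was again the highest, with a pileup of 37 (8.61-fold), so the gene with the largest added H3K4me3 peak also had the largest added H3K9cr peak. Pcdhb14 had 23 (4.82-fold), Pcdhb8 21 (5.23-fold), Pcdhb6 20 (3.43-fold), Pcdhb12 19 (4.76-fold) and Pcdhb5 18 (3.82-fold). Pcdhb7 and Pcdhb22 had 14, and Pcdhb1 had 13. Of the genes marked in both lists, Pcdhb19 was the highest, with 49 (10.5-fold) in control and 67 (16.2-fold) in crotonate. The lowest H3K9cr fold enrichments of any member were 2.45 at Pcdhb20 in control and 2.7 at Pcdhb22 in crotonate. No peak of H3K27ac or H3K27me3 was called anywhere in the Pcdhb cluster in either treatment (0 of 22 starts, upper bound 15.4%).

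**Figure D4:**
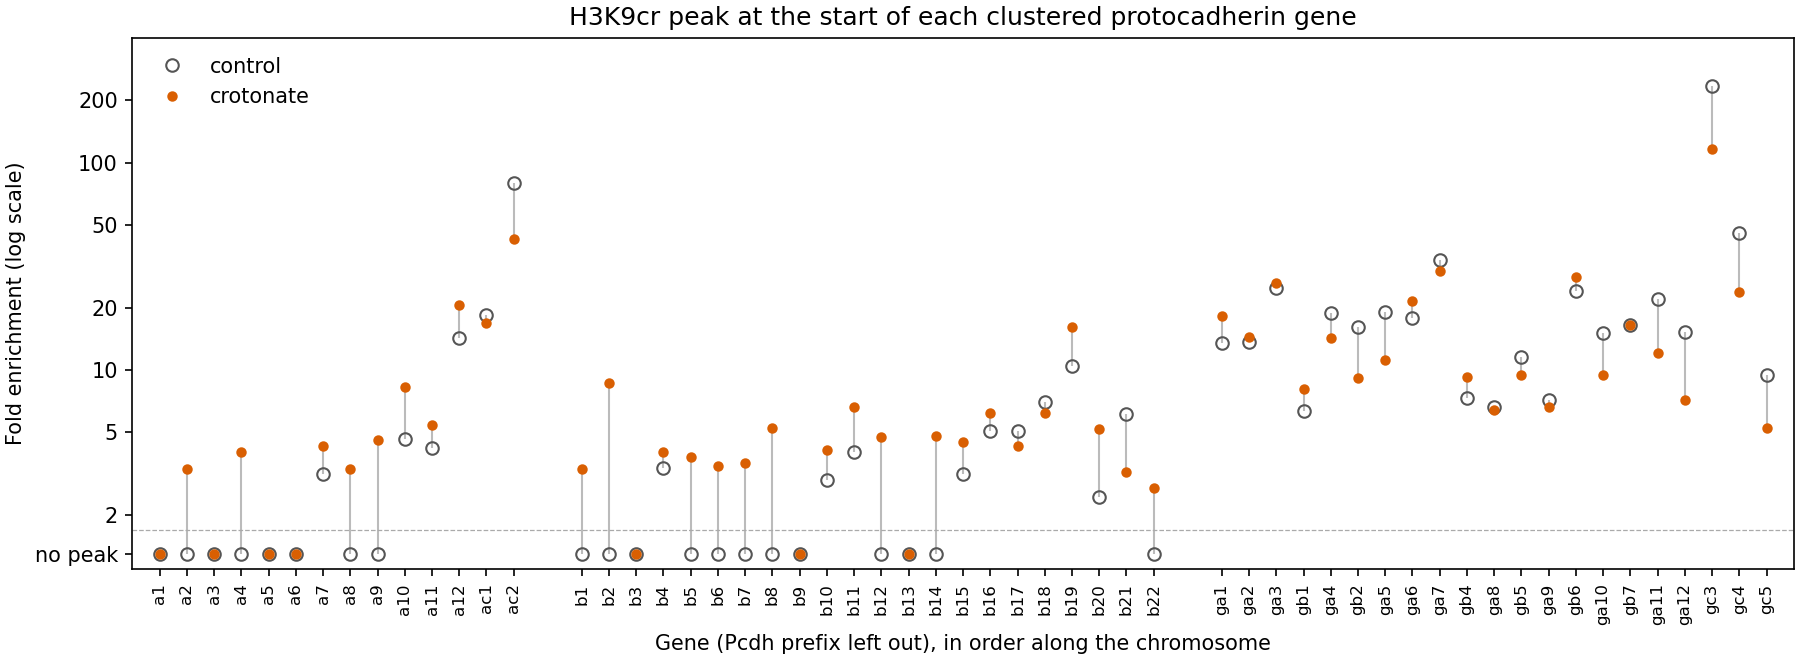
Fold enrichment of the H3K9cr peak at each gene's start (log scale, vertical axis) in control (open circles) and crotonate (filled circles), with genes in chromosome order and genes without a peak on the bottom line. Peaks are added at Pcdha and Pcdhb genes, and the 5 C-type genes are lower in crotonate.

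The H3K4me3 and H3K9cr gains overlapped in part. Both marks were gained at Pcdha4, Pcdha8, Pcdhb2, Pcdhb5, Pcdhb6 and Pcdhb14, which are 42.9% of the H3K4me3 gains and 46.2% of the H3K9cr gains. At another 6 genes, Pcdha7, Pcdhb4, Pcdhb10, Pcdhb11, Pcdhb15 and Pcdhb16, H3K4me3 joined an H3K9cr peak called in control. Pcdha3 and Pcdha5 gained H3K4me3 with no H3K9cr in either list. At Pcdha9, Pcdhb1 and Pcdhb22 H3K9cr joined an H3K4me3 peak called in control, and Pcdha2, Pcdhb7, Pcdhb8 and Pcdhb12 gained H3K9cr with no H3K4me3 in either list. Starts with both marks and neither of the others numbered 9 in control and 24 in crotonate.

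The gained peaks were weak and narrow. Gained H3K4me3 peaks had pileups of 14 to 42 (median 22) and a median width of 454.5 bp. Those of gaining background genes had a median pileup of 24 and a median width of 497 bp, so this was not particular to the members. Gained H3K9cr peaks had pileups of 13 to 37 (median 18), with the same median of 18 in the background. Their median width was 333 bp, against 454 bp in gaining background genes. In a bulk culture a low pileup from a mark on few cells cannot be told apart from a lower level on many. The control pileup at these starts is not in the lists, which hold only called peaks.

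Among members with H3K4me3 in both lists, the pileup was higher in crotonate at 24 of 33 (72.7%), against 24.3% of 10094 background genes, most of which have far stronger peaks. Weak peaks were therefore compared apart, taking a mean pileup of the 2 lists of at most 100, a limit chosen after the values were seen. The pileup was then higher in crotonate at 21 of 28 members (75.0%) and at 79.0% of 789 background genes. With the limit on the crotonate pileup alone, the shares were 72.0% of 25 members and 73.1% of 698 background genes. Pcdha and Pcdhb genes were higher at 9 of 10 and Pcdhg genes at 12 of 18 (66.7%), to either side of the background share. Within the limit the members were weaker than the background, with a median control pileup of 28, against 42, and the part of this was not tested.

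The clusters differed more for H3K9cr. The pileup was higher in crotonate at 13 of 37 members (35.1%), against 3.82% of background genes, and the fold enrichment at 18 of 37 (48.6%), against 8.84%. With a mean pileup of at most 100, the pileup was higher at 11 of 15 Pcdha and Pcdhb genes (73.3%) and at 2 of 16 Pcdhg genes (12.5%), against 24.6% of 1417 background genes. By fold enrichment these shares were 73.3%, 31.2% (5 of 16) and 39.0%, so the gap between the clusters was smaller on that scale. The Pcdha and Pcdhb peaks were also lower in control, at a median pileup of 21, against 67.5 in Pcdhg and 56 in the background. The part that strength plays in this difference was not tested.

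The alternate Pcdhg genes had the same calls of H3K4me3 and H3K9cr in both treatments. All 18 carried H3K4me3 and H3K9cr in both lists. Pcdhga1, the first, had an H3K4me3 pileup of 36 (9.45-fold) in control and 56 (14.7-fold) in crotonate, and Pcdhga12, the last, 27 (7.15-fold) and 34 (9.04-fold). The highest pileup in both lists was that of Pcdhga7, with 98 (25.3-fold) and 115 (25.2-fold), and the lowest that of Pcdhgb1, with 21 (5.62-fold) and 25 (6.71-fold). The median over the 18 was 52.5 in control and 56.5 in crotonate. Their H3K9cr pileups had a median of 76.5 in control and 50.0 in crotonate, and the pileup was higher in crotonate at 2 of 18, Pcdhga1 and Pcdhgb1. By fold enrichment 7 of 18 were higher. Order along the Pcdhg cluster and H3K4me3 fold enrichment had Spearman correlations of -0.02 and -0.15 over 21 genes, so the gradient of the Pcdha cluster was not seen there.

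By calls, H3K27ac separated the clusters more sharply than the other marks. It was called at 21 of 57 members in each treatment (36.8%, 24.4 to 50.7), against 55.4% of background genes in control and 55.3% in crotonate. Of these, 20 in control and 19 in crotonate were Pcdhg genes, and 1 and 2 were Pcdha genes. It was lost at Pcdhga5 (control pileup 14, 3.65-fold) and Pcdhga9 (12, 3.16-fold), which are 2 of 21 marked members (9.52%), against 3.12% of background genes. It was gained at Pcdhgb7 (crotonate pileup 16, 4.62-fold) and Pcdha12 (12, 3.53-fold), which are 2 of 36 unmarked members (5.56%), against 3.55%. The background shares lay inside the members' intervals of 1.17 to 30.4 for losses and 0.68 to 18.7 for gains. Those intervals are wide and treat neighbouring genes as independent, so this is no test and does not show that the shares are equal. All 4 changed peaks lay below the median pileups of the H3K27ac lists (23 in control, 17 in crotonate), the Pcdhgb7 peak only just. The lowest H3K27ac fold enrichment of a member was 2.92 in control, at Pcdhgb1 and Pcdhgb5, and 3.53 in crotonate, at Pcdha12 and Pcdhgb1. Thus 13 Pcdha and Pcdhb starts with added H3K9cr and 14 with added H3K4me3 were joined by a single added H3K27ac peak in these clusters, at Pcdha12, which already had both marks in control. H3K27ac peaks were low: at marked alternate Pcdhg starts the median control pileup was 21, against 76.5 for H3K9cr. The added H3K9cr pileups were only 13 to 37, and the lowest H3K27ac pileups listed were 10 in control and 9 in crotonate. A missing H3K27ac call at these starts therefore does not show that the mark was absent.

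The C-type genes ranged from no H3K4me3 peak to the strongest of any member. Pcdhgc3, which is used broadly in the brain, had the highest pileup at any member start for all 3 active marks in both lists. Its H3K4me3 pileup was 1035 (265-fold) in control and 915 (224-fold) in crotonate, its H3K9cr 1111 (235-fold) and 517 (116-fold), and its H3K27ac 164 (40.1-fold) and 104 (27-fold). Pcdhac2, known for its part in spacing serotonergic axons, followed for H3K4me3 with 449 (115-fold) and 410 (106-fold), and had an H3K9cr pileup of 378 (80.0-fold) and 178 (42.6-fold). These 2 were the only members whose H3K4me3 peak in control was among the stronger 50% of the list.

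Pcdhgc4, known to be needed for the survival of neurons, had an H3K4me3 pileup of 80 (20.7-fold) in control and 84 (16.6-fold) in crotonate, with H3K9cr at 215 and 105 and H3K27ac at 77 and 40. Pcdhgc5 was the only Pcdhg gene without H3K4me3 in either list, although it carried H3K9cr (44 and 21) and H3K27ac (34 and 25). Pcdhac1 had an H3K4me3 pileup of 108 (27.9-fold) in control and 111 (28.9-fold) in crotonate and H3K9cr at 86 and 70. The H3K9cr pileup was lower in crotonate at all 5 C-type genes, as at most marked genes of the background.

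Pcdhac1 and Pcdhac2 were also the only members with H3K27me3, so the windows around their starts held an active and a silencing mark in the same culture. In control an H3K27me3 peak covered each start, and in crotonate H3K27me3 peaks lay to either side of it. Together these genes are 3.51% of members (0.428 to 12.1) in each treatment, against 18.7% of background genes in control and 16.8% in crotonate. The H3K27me3 pileup at Pcdhac2 was 48 (13.3-fold) in control and 24 (6.82-fold) in crotonate, and at Pcdhac1 28 (7.86-fold) and 23 (6.18-fold). No member lost H3K27me3 (0 of 2, upper bound 84.2%; background 19.1%) and no member gained it (0 of 55, upper bound 6.49%; background 2.12%). The 12 starts that were without H3K4me3 and H3K9cr in control only, like the 5 that remained so in crotonate, had no H3K27me3 peak in either list.

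H3K4me3 and H3K9cr peaks at protocadherin starts were by median lower and narrower than those of background genes. H3K4me3 peaks at member starts had a median width of 540 bp in control and 545 bp in crotonate, against 1717 and 1761 bp in the background. Their median pileup was 36 in control, against 619. Weak peaks at background starts that gained H3K4me3 (median pileup 24) had a median width of 497 bp in crotonate. The part that peak strength plays in the widths was not tested. The C-type peaks were broader, from 852 to 5171 bp in control. The H3K4me3 summit lay inside the gene at 32 of 33 marked members in control, from 12 bp before to 696 bp after the start, and at 47 of 47 in crotonate, from 3 to 509 bp. The median summit was 167 bp past the start in control and 139 bp in crotonate. If the variable or single exon begins at the annotated start, the peaks sat over its first part. H3K9cr peaks had median widths of 522 and 486 bp, against 1957 and 1946 bp. Variable exons of neighbouring genes are similar in sequence, the sources used here do not say how reads mapping to several places were treated, and the part of this in the low and narrow peaks was not tested.

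Outside the gene starts few H3K4me3 and H3K9cr peaks differed between the lists. Of 57 H3K4me3 peaks in crotonate 16 were without a partner in control, and 14 of these lay at member starts. No control H3K4me3 peak was without a partner, and the number in control was 41. All 13 gained H3K9cr peaks lay at member starts, and the H3K9cr lists held 54 and 66 peaks, with 1 control peak lost, in the downstream flank. H3K4me3 covered 31701 bp of the region in control and 40887 bp in crotonate, and H3K9cr 53863 and 54264 bp. H3K27ac covered 59512 and 49572 bp, in 39 and 44 peaks. Its covered length in the variable part of Pcdhg was 23042 bp in control and 16890 bp in crotonate. Over the whole genome, H3K27ac peaks summed to 66.7 Mb in control and 58.4 Mb in crotonate, so a lower length was not particular to this region. The sums were 27.1 and 28.7 Mb for H3K4me3 and 45.5 and 43.1 Mb for H3K9cr. No list had a peak in the 49.0 kb upstream of Pcdha.

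The constant exons and the gaps between clusters held peaks of their own. Within the constant part of Pcdha, a site at 37177802 to 37178775 had an H3K4me3 pileup of 83 in control and 62 in crotonate, H3K9cr of 330 and 144, and H3K27ac of 116 and 88. Enhancers known to act on the Pcdha promoters lie within and downstream of the constant exons. The files do not place these enhancers, so no peak was assigned to them. Within the constant part of Pcdhg, an H3K9cr peak at 37823188 to 37827339 had a pileup of 349 in control and 147 in crotonate.

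Between Pcdha and Pcdhb, a site with the 3 active marks lay at 37217046 to 37218349, past the annotated end of Pcdha at 37188897. Its H3K4me3 pileup was 194 (49.8-fold) in control and 208 (54.0-fold) in crotonate, its H3K9cr 282 and 199, and its H3K27ac 69 and 84. H3K4me3 and H3K27ac were thus at least as high in crotonate, and H3K9cr was lower. An H3K27me3 peak bordered it upstream, at 37214183 to 37217050, with a pileup of 17 (4.88-fold) in control and 32 (9.0-fold) in crotonate. In the crotonate list 8 further H3K27me3 peaks without a partner lay between 37202976 and 37221402, with pileups of 10 to 23. H3K27me3 covered 2868 bp of this gap in control and 6004 bp in crotonate, the reverse of its lower pileups at Pcdhac1 and Pcdhac2. Across the genome 45.2% of crotonate H3K27me3 peaks had no partner in control, and on chromosome 18 41.9%.

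**Figure D5:**
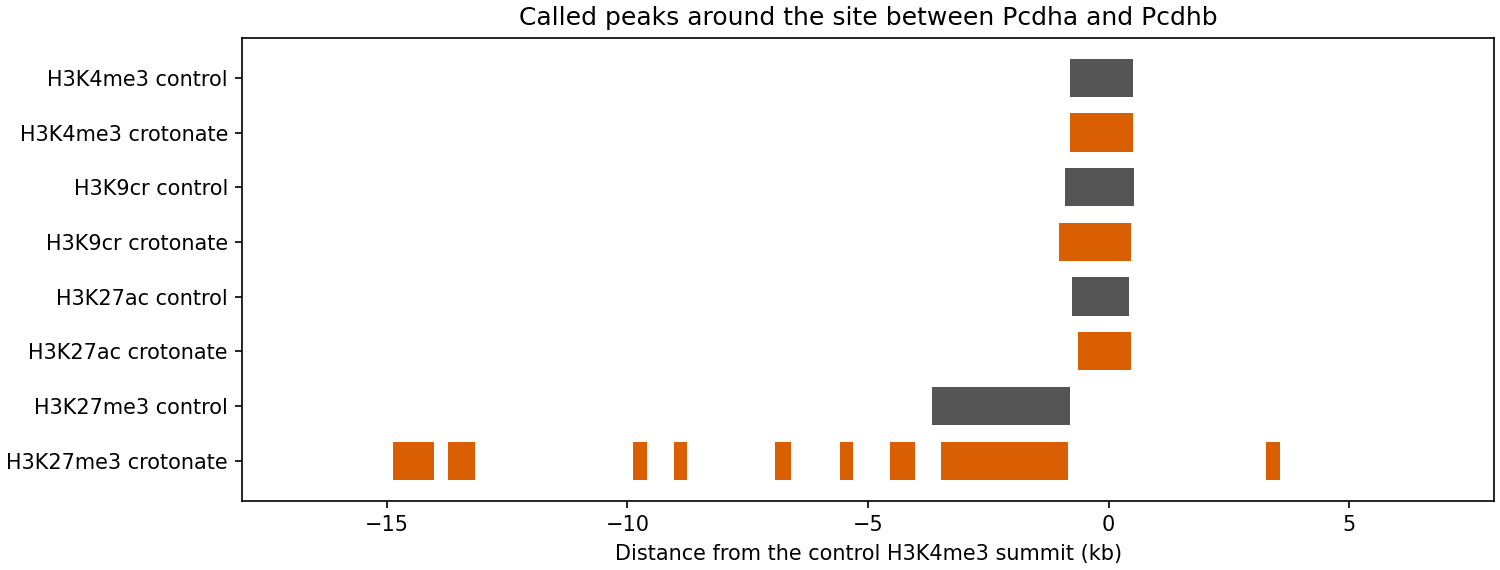
Extent of the peaks of the 8 lists around the site between Pcdha and Pcdhb, by distance from its control H3K4me3 summit (kb, horizontal axis), control in gray and crotonate in orange. The 3 active marks cover the same short stretch in both treatments, and H3K27me3 goes from 1 peak in control to 9 in crotonate.

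Genes for proteins that act on or with the clusters had the same calls of the 3 active marks in both treatments, as most background genes did. Of 23 regulators of the clusters (CTCF, cohesin and its loaders and unloaders, DNA methyltransferases, Setdb1, Trim28, Smchd1 and Polycomb subunits), 19 had a start that could be placed, and 16 of these carried H3K4me3, 16 H3K9cr and 16 H3K27ac in both lists, with none lost or gained. In the background 57.9% of genes carried H3K4me3, 59.2% H3K9cr and 55.4% H3K27ac in control. Of the genes so marked, only 0.346%, 0.927% and 3.12% lost the mark. Ctcf, whose protein binds at most of the promoters, had an H3K4me3 pileup of 945 in control and 798 in crotonate. H3K27me3 was lost at Smc1a and gained at Wiz, each at a pileup of 10. In the background 19.1% of marked genes lost it and 2.12% of unmarked genes gained it. Of 14 binding partners and downstream proteins, among them the kinase Fyn and the actin regulator Wasf1, 7 could be placed, and all 7 carried the 3 active marks and no H3K27me3 in both lists.

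Protocadherins outside the clusters looked different from the clustered genes. Of 12 such genes 9 could be placed, and 8 carried H3K4me3 in control and 9 in crotonate, with Pcdh15, a protein of hair cell tip links, the gained gene (pileup 40, 10.6-fold). H3K9cr was called at 8 and H3K27ac at 6 in both lists. H3K27me3 was called at 7 of 9 in control and 3 in crotonate, against 18.7% and 16.8% of background genes. It was lost at Pcdh10 (control pileup 34) and at Pcdh9, Pcdh17 and Pcdh18, where the control peaks were near the calling limit, with pileups of 13, 11 and 12. In the background 19.1% of marked genes lost it. Among the clustered genes it was called at 2 of 57 in both lists. Pcdh10 had an H3K4me3 pileup of 539 in control and 500 in crotonate, above those of all clustered genes except Pcdhgc3.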

How the data were processed

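Native ChIP-seq of 4 marks in control and crotonate-treated neural stem/progenitor cells gave 8 deposited peak lists, each from 1 library, and the 2 inputs had no list used here. The submitters' processing notes name Bowtie2 2.4.1, MACS2 2.2.7.1 and GRCm38. For calling settings, duplicates and multi-mapping reads the sources used here give nothing. Per the file headers, the lists are MACS2 peak tables with positions counted from 1. The deposited pileup is a coverage signal at the summit, and the deposited fold enrichment is its ratio to local background. The authors also give -log10 of the p-value and q-value, of which the latter ranked peaks within a list. Depth is unknown, and without molecular identifiers reads are not independent molecules.

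Scripts (Python 3.11.15, pandas 2.3.3, scipy 1.17.1) assigned peaks to windows of 1 kb either side of each start in a RefSeq table of GRCm38.p6, and paired peaks of a mark by an overlap of at least 1 bp. The lower coordinate of each member was taken as its start, and background genes took theirs from the strand in a promoter table of that build. The code was tested on simulated peaks. Named were the C-type genes, the first and last alternate genes, members that changed state and the highest and lowest members. The members and gene lists were chosen with earlier results of these data known. The comparisons by control state and of weak peaks were added after the values were seen. Alternatives covered the window, peak strength, equal numbers of peaks, merging and the overlap rule.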

Additional observations from a re-analysis of the deposited data

How the results depend on the processing

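Of 104 alternative values, 84 stayed within the limits set for no change, among them all those with windows of 500 bp or 2 kb. With the stronger 50% of each list, H3K4me3 was called at 2 members in each treatment with 0 gained. The added H3K4me3 peaks thus rest on weak calls. H3K9cr was then called at 14 members in control and 17 in crotonate, with 1 lost and 4 gained, and H3K27ac at 11 in control, with 1 lost and 4 gained. The covered length in crotonate minus control was then -160 bp for H3K4me3 (9186 bp with all peaks), -2219 bp for H3K9cr (401 bp) and 1301 bp for H3K27me3 (2327 bp). With equal numbers of peaks in both lists of a mark, 1 member lost H3K4me3, 13 gained it, and the H3K27me3 difference was 1211 bp. With peaks within 3 kb merged, the differences were -1259 bp for H3K9cr, -5596 bp for H3K27ac (-9940 bp unmerged) and 9026 bp for H3K27me3. With an overlap of at least 50% of both peaks, 22 H3K9cr peaks of the region had no partner (14 at 1 bp), and when peaks within 1 kb counted as partners, 7 H3K27ac peaks had none (13 at 1 bp). No paired analysis was possible because each mark and treatment has 1 library. Without read depth, a gain cannot be told apart from a peak that lay just under the calling limit in control.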
